A study of Mus musculus with 9 samples.

Results

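The Vwf-negative Procr-positive stem cells described here are a fraction of the LSK compartment of mouse bone marrow, the lineage-negative, c-Kit-positive and Sca-1-positive cells that hold hematopoietic stem cells and their early progeny. They were chosen by their own transcripts, counted as unique molecular identifiers (UMIs). A member had at least 1 UMI of Procr and 1 of Mllt3, and 0 UMIs of Vwf, Flt3 and Mki67. Cells with at least 2 UMIs of Cd74 together with at least 2 of the MHC class II genes H2-Aa, H2-Ab1 and H2-Eb1 were left out, as were cells with 80 or more UMIs of Fos, Fosb, Jun and Egr1 per 10000 UMIs. Of 32387 barcodes in 9 libraries, 15975 cells passed the filters (1000 to 40000 UMIs, at most 6000 genes and at most 10% mitochondrial UMIs), and 898 of them, 5.62%, were members.

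The libraries came from 3 young, 3 aged and 3 CASIN samples of C57BL/6 mice. CASIN is a small-molecule inhibitor of Cdc42, a small GTPase of cell polarity. CASIN mice were aged mice of over 80 weeks injected intraperitoneally 4 times with 25 mg/kg CASIN, 1 injection every 24 h, and harvested on day 5, while young controls of 10 to 12 weeks and aged controls of over 80 weeks received the cyclodextrin vehicle only. Young 1 and 2, aged 1 and CASIN 1 and 2 were sequenced in batch 1, and young 3, aged 2 and 3 and CASIN 3 in batch 2. All cells were frozen viably and thawed before 10x Genomics 3′ capture. The labels do not say whether a library holds 1 mouse or several, so that p-values measure the spread between libraries.

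Hematopoietic stem cells reside in the bone marrow, divide rarely and renew the blood for life. Procr, the endothelial protein C receptor EPCR, is carried at the surface of cells with long-term repopulating activity, and Mllt3 encodes a transcriptional co-factor that maintains them. Stem cells that carry von Willebrand factor, the product of Vwf, tend to give rise to platelets, whereas those without it more often yield balanced or lymphoid-rich progeny. With age the stem cell pool grows, more of its cells turn to platelets and myeloid cells, and the output of lymphocytes declines.

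Members numbered 102, 107 and 58 in young 1 to 3, 178, 89 and 72 in aged 1 to 3 and 68, 74 and 150 in CASIN 1 to 3. They made up 4.73, 4.84 and 4.79% of the young cells (mean 4.78% ± 0.0564, SD, n = 3), 11.3, 5.26 and 4.06% of the aged cells (6.89% ± 3.90) and 6.08, 4.10 and 6.15% of the CASIN cells (5.44% ± 1.16). Aged 1 stood above every other library, and at full depth the aged and CASIN ranges enclosed the young values. The rule counts UMIs, so these shares depend on depth. The rule was also applied to cells thinned to 5000 UMIs, without the 641 cells, 24 of them members, that had fewer. Shares of the thinned cells were 2.79, 3.36 and 2.67% in young samples (mean 2.94%). They were 9.73, 4.77 and 2.81% in aged (5.77%) and 5.01, 4.36 and 4.83% in CASIN samples (4.73%). After thinning, all CASIN values thus lay above all young values, and aged 3 lay within the young range. Of 674 thinned cells that met the rule, 93 had failed it at full depth through Vwf alone. Cells failing through Vwf alone at full depth numbered 34 in young and 340 in CASIN samples. Their part in this order was not tested. Because the shares follow from the rule, they are given as a description, without a test.

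The Vwf limit divided young and aged cells unequally. Cells that met every condition of the rule but had at least 1 Vwf UMI, called Vwf-positive cells here, numbered 671. The cells without Vwf were 92.7, 85.6 and 87.9% of both classes together in the young samples, 49.4, 52.4 and 67.9% in the aged samples and 45.6, 52.5 and 43.9% in the CASIN samples. The 3 young values lay above all 6 others, and the aged and CASIN ranges overlapped. After thinning to 5000 UMIs the mean shares were 93.2% in young, 71.4% in aged and 66.1% in CASIN samples.

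**Figure D1:**
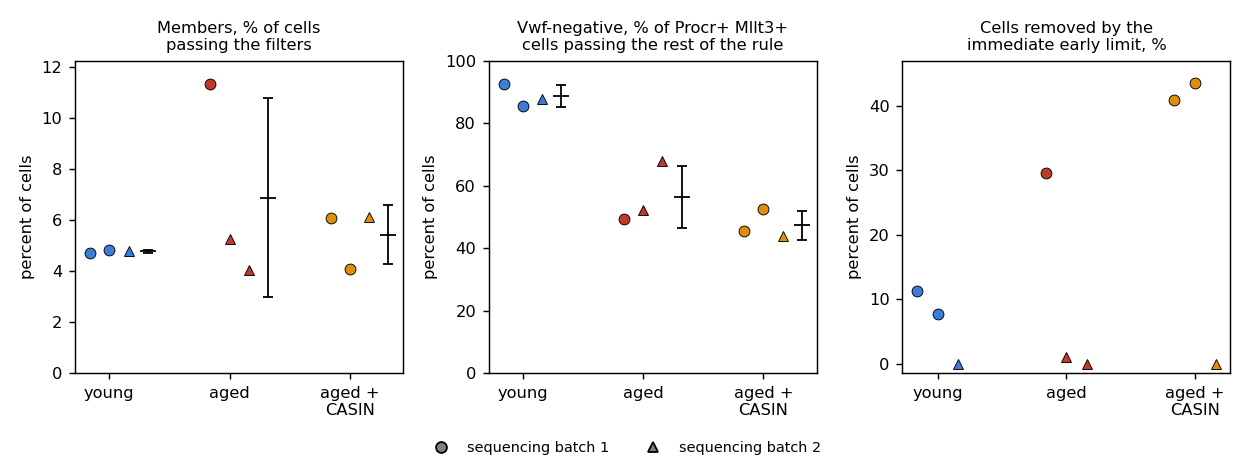
The first panel plots members as a percent of cells passing the filters, the second the cells without a Vwf UMI as a percent of cells meeting the rest of the rule, and the third the percent of cells removed by the immediate early limit, for each library (circles batch 1, triangles batch 2; black marks, mean ± SD of 3 libraries, not drawn in the third panel). Aged 1 has the highest share of members (11.3%), the young libraries the highest Vwf-negative shares (85.6 to 92.7%), and cells removed by the immediate early limit lie almost all in batch 1.

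Many cells lay close to the limits of the rule. Of the 898 members, 388 (43.2%) had exactly 1 Procr UMI and 259 had 3 or more, with a maximum of 21. Exactly 1 Mllt3 UMI was found in 473 members (52.7%), and 3 or more in 217. Among cells outside by 1 condition only, 588 lacked a Procr UMI, 1103 lacked an Mllt3 UMI, 424 had Flt3, 104 had Mki67 and 368 had MHC class II transcripts. Of the 671 Vwf-positive cells, 308 (45.9%) had exactly 1 Vwf UMI. The classes shift with depth: of 674 cells that met the rule after thinning to 5000 UMIs, 417 were members and 93 Vwf-positive at full depth.

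The immediate early limit acted almost only in batch 1. It removed 11.3, 7.76 and 0% of cells that met the rest of the rule in young 1 to 3, 29.6, 1.11 and 0% in aged 1 to 3 and 40.9, 43.5 and 0% in CASIN 1 to 3. Of the 202 cells removed by this limit alone, 201 came from batch 1. With a score of 60 to 80 per 10000 UMIs, 112 members lay just inside the limit and 80 other cells, at 80 to 100, just outside. Fos, which the limit uses, reached 1770 to 2574 UMIs per 1000000 UMIs (counts per 1000000, CPM) in the members of batch 1 and 5.53 to 22.5 CPM in those of batch 2.

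Sequencing batch coincided with sex in these libraries. Xist, the RNA that silences an X chromosome in female cells, was at 0 to 0.551 CPM in members of the 5 libraries of batch 1 and at 2347 to 2580 CPM in the 4 of batch 2. The Y-linked genes Ddx3y, Eif2s3y, Kdm5d and Uty were at 60.3 to 80.2, 80.2 to 95.3, 8.73 to 13.8 and 15.4 to 22.6 CPM in batch 1 and at 0 in batch 2. Other genes outside the rule were split in the same way. Klf2, a Krüppel-like transcription factor, ranged from 268 to 787 CPM in batch 1 and from 1.46 to 24.4 CPM in batch 2. Cxcr4, the receptor that holds stem cells in the marrow, ranged from 3.31 to 12.6 CPM and from 169 to 742 CPM, and Cdkn1a, an inhibitor of cell division, from 41.3 to 121 CPM and from 512 to 849 CPM. Bcl2l11, which promotes apoptosis, was at 5.58 to 18.8 CPM and at 140 to 351 CPM. Batch and sex cannot be told apart, and every group comparison below has the batch as a term.

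**Figure D2:**
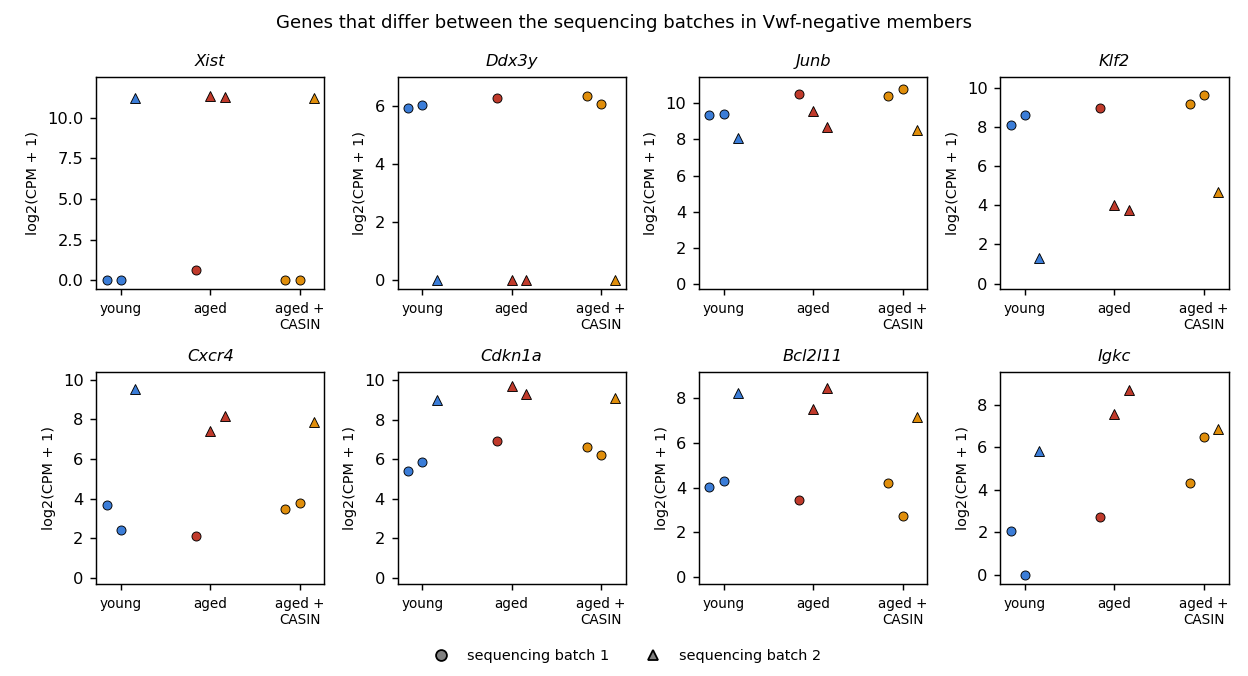
Levels of 8 genes in the members of each library, as log2(CPM + 1) on the vertical axis, grouped as young, aged and CASIN (circles batch 1, triangles batch 2). The values of Xist, Ddx3y, Klf2, Cxcr4, Cdkn1a and Bcl2l11 separate the batches in every group, whereas those of Junb and Igkc overlap between batches.

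Members were set beside 2418 cells with Flt3, the receptor of early lymphoid-primed progenitors, and without Procr and Vwf. In edgeR's quasi-likelihood test with Benjamini-Hochberg adjustment, 3086 of 8837 genes (34.9%) passed the threshold of 0.05 between the classes, with 17.1% higher in members and 17.8% lower. Against these shares, 19 of 19 long-term stem cell markers tested were higher in members (median log2 difference 2.19). Of early progenitor genes, 0 of 12 were higher and 11 lower (median -1.25), and of lymphoid priming genes 0 of 14 were higher and 12 lower (median -0.88). Of 20 DNA replication genes, 0 were higher and 18 lower. The members were chosen for Procr and Mllt3 and for 0 UMIs of Flt3 and Mki67, and the comparison cells for Flt3 and 0 UMIs of Procr, so that these counts largely follow from the choice of cells. They describe the members and are no independent check of their label.

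Single genes showed the size of this contrast. Cdkn1c, the Cdk inhibitor p57 of dormant cells, was at 56.4, 61.4 and 16.1 CPM in young members, 89.8, 49.7 and 22.1 CPM in aged members and 96.5, 92.0 and 37.0 CPM in CASIN members, against 2.88 to 14.3 CPM in Flt3-positive cells. Its log2 difference was 2.90 (SE 0.13, adjusted p = 5.01e-11), and that of Dntt, the terminal transferase of lymphoid progenitors, was -6.39. Dntt was at 1.18 to 11.9 CPM in members and at 233 to 715 CPM in Flt3-positive cells, and the 9 libraries of each class did not overlap.

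Markers of mature cells were low, with the light chain gene Igkc as the exception. Of the B cell markers, Ms4a1, Ighd and Pax5 were at 0 in members of all libraries, and the summed level of the list was 42.9, 38.4 and 64.2 CPM in young, 38.0, 194 and 422 CPM in aged and 51.4, 113 and 119 CPM in CASIN samples. Averaged over the libraries, most of it was Igkc (mean 98.9 CPM), at 0 to 87.9 CPM in batch 1 and 56.9 to 412 CPM in batch 2. Igkc had a UMI in 76.5% of aged 3 members thinned to 5000 UMIs and in 85.0% of the equally thinned Flt3-positive cells of the same library. The share was higher in members in young 1, aged 1, CASIN 1, aged 2 (63.4 against 55.0%) and CASIN 3 (44.4 against 40.1%). It was lower in CASIN 2 (31.0 against 34.6%), about equal in young 3 and 0 in both classes in young 2. By level over all libraries Igkc was lower in members than in Flt3-positive cells, where it reached 13304 CPM in aged 2 (-4.16, SE 0.85, adjusted p = 0.00112 in edgeR's test). With the study's limit on the residual of genes against UMIs the log2 difference turned to 0.15. The T and NK list had Nkg7 in front (mean 55.1 CPM), with Cd3e, Cd3g, Cd8a, Klrd1 and Gzma at 0 and sums of 20.9 to 95.3 CPM. The red cell list had Car2 in front (548 CPM), a gene that stem cells also express, with Car1 and Alas2 at 0. Cd14 led the neutrophil and monocyte list (31.8 CPM), with Retnlg and Ly6g at 0 and sums of 4.18 to 13.8 CPM in batch 1 and 65.7 to 111 CPM in batch 2. Stromal, mast cell and vascular endothelial lists were led by Col1a2 (3.74 CPM), Cpa3 (3.94 CPM) and Emcn (22.97 CPM).

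Members differed in the detection of Cd34, the surface sialomucin that early progenitors carry and the most dormant stem cells lack. At 5000 UMIs a cell with 0 Cd34 UMIs may still hold the transcript, so that the shares below do not count cells without Cd34. Among members thinned to 5000 UMIs, a Cd34 UMI was found in 64.7, 57.9 and 69.6% of young cells, 20.9, 36.6 and 50% of aged cells and 31.3, 21.1 and 24.3% of CASIN cells. Every young library lay above every aged and CASIN library. The share was 75.5 to 91.9% in Flt3-positive cells and 0 to 25% in Vwf-positive cells, so that all 9 values in members lay below the Flt3-positive range, and those of aged 1 and CASIN 2 and 3 lay within the Vwf-positive range.

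The cells with and without a Cd34 UMI also differed in other transcripts. Plac8, one of the early progenitor genes, had a UMI in 54.5, 53.2 and 69.2% of Cd34-positive against 8.33, 8.89 and 5.88% of Cd34-negative young members, in 10.8, 46.7 and 58.8% against 6.43, 21.2 and 14.7% in aged and in 33.3, 33.3 and 40.0% against 4.35, 12.5 and 14.7% in CASIN samples. Nupr1, a stress-induced nuclear protein, went the other way, with 3.03, 4.84 and 17.9% against 19.4, 13.3 and 35.3% in young, 59.5, 36.7 and 23.5% against 76.4, 46.2 and 50% in aged and 42.9, 46.7 and 45.7% against 67.4, 75.0 and 69.7% in CASIN samples. Its share in equally thinned Flt3-positive cells was 0.88, 0 and 4.73% in young, 7.41, 5.43 and 6.80% in aged and 4.0, 3.04 and 15.6% in CASIN samples. Selp, the adhesion molecule P-selectin of platelets and endothelium, was found in 4.55, 1.61 and 15.4% against 0, 4.44 and 0% of young, 37.8, 56.7 and 20.6% against 40.7, 28.8 and 23.5% of aged and 28.6, 20.0 and 28.6% against 32.6, 26.8 and 40.4% of CASIN members. In equally thinned Flt3-positive cells, a Selp UMI was found in 1.76, 2.69 and 10.8% of young, 5.19, 17.1 and 14.3% of aged and 12.0, 5.32 and 10.9% of CASIN cells, against 2.94, 2.80 and 10.7%, 40.1, 39.0 and 22.1% and 31.3, 25.4 and 37.5% of all members. The share of young 3 members lay at this background, and those of young 1 and 2 were little above it. These shares rest on 15 to 66 Cd34-positive and 17 to 140 Cd34-negative cells per library and are given without a test.

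The comparison of aged with young members asked which transcripts of these cells change with age. Ramp2, Clu, Selp, Nupr1, Mt1 and Mt2 were among the genes higher in aged members, and Cd34, Plac8, Spi1 and Mcm2 among those lower. Of the lists, 7 of 15 platelet genes rose, and 4 of 12 early progenitor, 3 of 19 DNA replication and 2 of 13 lymphoid priming genes fell. Of 8125 genes tested over the UMIs summed per library, 277 (3.41%) passed an adjusted p of 0.05 in edgeR's quasi-likelihood test, 210 (2.58%) higher and 67 (0.825%) lower in aged members, and 268 of the 277 had the same direction in both batches. The median log2 difference of all genes was 0.00. Aged 1, which alone represents the aged samples of batch 1, decided much of the count: without it 52 genes passed. Batch 1 alone gave 465 genes, batch 2 alone 18, and the fit of all libraries without a batch term 0. Members of every young library were deeper than those of every aged library. Median UMIs were 11776, 10772 and 11401 (mean 11316 ± 507, SD, n = 3) against 9559.5, 8793 and 8532.5 (8962 ± 534). With the rule applied anew to cells thinned to 5000 UMIs, 149 genes passed. Of the 674 cells then chosen, 417 were members at full depth, so that depth and the set of cells changed together. The median mitochondrial share of members was 3.1, 3.0 and 5.1% in young and 3.6, 7.6 and 5.9% in aged samples. It was higher in aged than in young members within each batch. At a mitochondrial limit of 5%, 185 genes passed, 165 of them among the 277.

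Among genes that rose, Ramp2, a partner of calcitonin-type receptors, was at 3.97, 5.12 and 2.92 CPM in young and 129, 56.8 and 37.3 CPM in aged members. The groups did not overlap, and the log2 difference was 4.54 (SE 0.37, adjusted p = 2.95e-07), with 4.42 within batch 1 and 3.32 within batch 2. Clu, which encodes the secreted chaperone clusterin, was at 3.97, 17.1 and 1.46 CPM in young and 84.9, 48.5 and 33.2 CPM in aged members, a log2 difference of 3.24 (SE 0.34, adjusted p = 5.38e-06). Selp was at 9.53, 8.53 and 27.7 CPM in young and 113, 135 and 84.3 CPM in aged members, a log2 difference of 2.97 (SE 0.29, adjusted p = 3.12e-06), with 3.46 and 1.91 within the batches. Both genes were higher in every aged than in every young library. Cyr61, which encodes a matrix protein, had 0 UMIs in young members and 56 in aged members (17.6, 22.5 and 6.91 CPM). Taking 3 UMIs over the young group as its limit, it was at least 17.2-fold higher in aged members.

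The metallothionein genes Mt1 and Mt2, whose products bind metals, were at 14.3, 20.5 and 33.6 CPM and at 0, 0 and 2.92 CPM in young members and at 291, 85.3 and 45.6 CPM and 59.5, 17.8 and 16.6 CPM in aged members. Their log2 differences were 3.33 (SE 0.41, adjusted p = 3.91e-05) and 6.00 (SE 0.59, adjusted p = 3.12e-06), and aged 1 was highest for both. With Mt2 at 0, 0 and 2.92 CPM in young members, the size of its difference is uncertain. Nupr1 was at 27.0, 22.2 and 81.7 CPM in young and 419, 191 and 147 CPM in aged members, without overlap, a log2 difference of 2.85 (SE 0.37, adjusted p = 7.15e-05). Aldh1a1, an aldehyde dehydrogenase that also makes retinoic acid, rose by 2.04 (SE 0.21). Of 19 redox and metallothionein genes, 5 rose and 0 fell, with a median log2 difference of 0.06 and Gstm2 as the fifth. These calls for Ramp2, Clu, Selp, Cyr61, Mt1, Mt2, Nupr1 and Aldh1a1 held with any single library left out.

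Other large rises rested on aged 1. Cldn5, the tight junction protein claudin-5, was at 6.35, 2.56 and 0 CPM in young and 131, 1.18 and 0 CPM in aged members, so that aged 2 and 3 lay within the young range. Gpr183, a receptor that guides cells along oxysterols, was at 119, 15.4 and 1.38 CPM and Matn4, which encodes the matrix protein matrilin-4, at 47.4, 9.47 and 1.38 CPM in aged members, against at most 3.41 and 1.71 CPM in young members. Their log2 differences were 4.83, 5.21 and 4.68, and with Klrb1c, which encodes a lectin-like receptor of natural killer cells (3.55), they were the 4 of the 10 largest rises that did not pass without aged 1. The others were Mt2, Cyr61, Ramp2, the nuclear receptor gene Rorb (4.18), the chloride channel regulator gene Clca3a1 (3.77) and the BMP receptor gene Bmpr1a (3.55).

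Of 23 long-term stem cell markers, 11 were higher in aged members and 1, Gimap1, was lower (median log2 difference 0.69). The 11 included Clca3a1, Nupr1, the sulfotransferase gene Sult1a1, the apolipoprotein gene Apoe and Slamf1, which encodes CD150. Slamf1 was at 11.9, 8.53 and 4.38 CPM in young and 49.6, 11.8 and 1.38 CPM in aged members, a log2 difference of 2.15 (SE 0.38, adjusted p = 0.00155), with 2.16 within batch 1 and 0.13 within batch 2. Its highest value was that of aged 1, while aged 2 lay within the young range and aged 3 below it. Apoe rose by 1.19 (SE 0.18), from 307, 368 and 344 CPM in young to 969, 708 and 441 CPM in aged members, and did not pass without aged 1. Of 23 stem cell transcription factors, 4 rose, among them Ndn (0.97), Gata2 (0.91) and Fli1 (0.76), and 0 fell (median 0.27), and these 3 did not pass without aged 1. The log2 difference of Hlf, a regulator of stem cell quiescence, was -0.28 (SE 0.18, adjusted p = 0.521), that of Mecom, which keeps the self-renewing state, 0.27 (SE 0.15, adjusted p = 0.465), and that of Meis1, a partner of Hox factors, 0.15 (SE 0.18, adjusted p = 0.788); none of these 3 passed.

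Of 15 platelet and megakaryocyte genes, 7 rose and 0 fell (median 0.63). Besides Selp and Clu they were Cavin2, a caveola protein gene (2.85), the integrin gene Itga2b of the fibrinogen receptor (1.46), Gp9 of the von Willebrand factor receptor (1.41), the tetraspanin gene Cd9 (0.65) and Zfpm1, a partner of GATA factors (0.63). The chemokine gene Pf4 was at 96.8, 72.5 and 21.9 CPM in young and 40.2, 20.1 and 12.4 CPM in aged members and did not pass (-0.83, SE 0.24, adjusted p = 0.0565).

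Early progenitor genes were among those that fell, 4 of 12 (median -0.58), with 0 higher. Cd34 was at 265, 216 and 282 CPM in young and 61.2, 153 and 178 CPM in aged members, a log2 difference of -1.23 (SE 0.22, adjusted p = 0.00221), with -1.87 within batch 1 and -0.72 within batch 2. Plac8 was at 236, 304 and 317 CPM and 36.9, 188 and 223 CPM, a log2 difference of -1.44 (SE 0.30, adjusted p = 0.00667). Aged 1 was lowest for both genes, and the groups did not overlap in either. The transcription factor gene Spi1, which drives myeloid and lymphoid fates, fell by 0.71, and Cd48, a surface marker of progenitors, by 2.19 on the log2 scale. Cd52, which encodes a lymphocyte surface peptide, was at 121, 92.1 and 83.2 CPM in young and 16.5, 48.5 and 74.6 CPM in aged members, a log2 difference of -1.49 (SE 0.30, adjusted p = 0.00579). Without aged 1, Cd34, Plac8, Spi1, Cd48 and Cd52 no longer passed, with log2 differences of -0.71 for Cd34 and -0.63 for Plac8.

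Lymphoid priming genes, Cd52 among them, fell in 2 of 13 cases, with 0 higher and a median of -0.35. DNA replication genes fell in 3 of 19 cases, with 0 higher and a median of -0.54. These were the helicase genes Mcm2, Mcm3 and Mcm6, of which Mcm2 was at 40.5, 40.9 and 26.3 CPM in young and 19.3, 13.0 and 13.8 CPM in aged members (-0.97, SE 0.26, adjusted p = 0.045). All aged values of Mcm2 lay below all young values, but none of the 3 genes passed without aged 1. The 10 largest falls were those of Ctss, which encodes a lysosomal protease (-2.20), Shisa8 (-2.19), Cd48 (-2.19), the oxidase subunit gene Ncf4 (-2.14), Fam105a (-2.09), Fam46a (-2.01), the ribonuclease gene Rnase6 (-1.93), the cytokine subunit gene Ebi3 (-1.91), the potassium channel gene Kcnk12 (-1.76) and Rgs10, a regulator of G protein signals (-1.67). None of these 10 passed without aged 1.

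Handling-response genes outside the rule moved with age too. They are switched on within minutes in stressed or dissociated cells, and 12 of 19 rose and 0 fell in aged members (median 1.24). Nr4a1 and Nr4a2, nuclear receptor genes of this kind that the study discusses, are described with CASIN below, and the AP-1 gene Junb rose by 1.28 (SE 0.20). Their part in the other differences was not tested. Without the immediate early limit, 370 genes passed between aged and young cells. Beside the 3.41% of all genes called, 0 of 13 interferon response genes, 1 of 20 endoplasmic reticulum folding genes (Atf4), 1 of 11 cytosolic heat shock genes (Dnajb1) and 0 of 19 genes of Cdc42 with its effectors and regulators passed, counts that do not set these lists apart from all genes. Cxcr4 was at 11.9, 4.26 and 742 CPM in young and 3.31, 169 and 283 CPM in aged members, and fell by 1.55 (SE 0.26, adjusted p = 0.000978) once the batch was a term. Within each batch the aged values lay below the young values, whereas over all 6 libraries the groups overlapped. The B cell list had 1 of 2 genes higher, Igkc (2.56, SE 0.70, adjusted p = 0.0448), which did not pass without aged 3, CASIN 1 or any 1 of the young libraries.

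**Figure D3:**
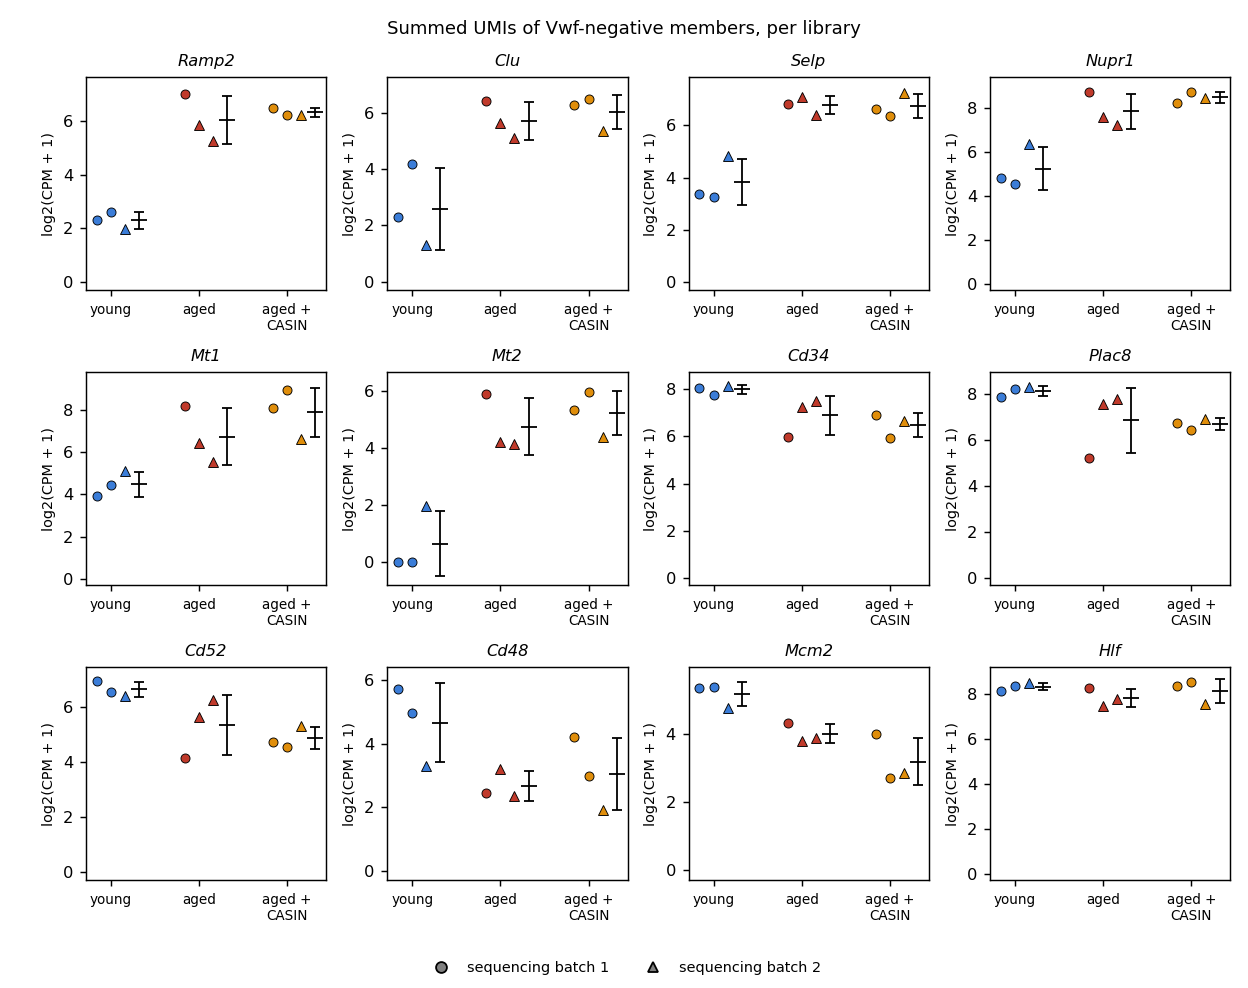
Levels of 12 genes in the members of each library, as log2(CPM + 1) on the vertical axis, for young, aged and CASIN samples (circles batch 1, triangles batch 2; black marks, mean ± SD of 3 libraries). Ramp2, Clu, Selp, Nupr1 and Mt1 lie higher in every aged and CASIN library than in every young library, and Cd34 and Cd52 lower.

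CASIN was given to aged mice to ask whether inhibition of Cdc42 moves aged stem cells toward the young state. No gene of these members passed between CASIN and aged samples. Of 8125 genes, 0 had an adjusted p below 0.05 in edgeR's test (0% called), 373 (4.59%) had an unadjusted p below 0.05, and DESeq2 gave 0 and 100. Within batch 1 alone, Loxl2, Plac8 and Dennd5b passed, and within batch 2 alone Cxcl2, Ccl4 and Gm42418. These 6 genes were named after their values were seen. A count of 0 does not show that the members of both groups were alike.

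Cdc42 itself was at 368, 351 and 369 CPM in young, 398, 417 and 402 CPM in aged and 373, 409 and 387 CPM in CASIN members. CASIN acts on the protein, and the transcript differed little: the log2 difference between CASIN and aged members was -0.05 (SE 0.11), and that between aged and young members was 0.21 (SE 0.11, adjusted p = 0.42). Nr4a1, which restrains proliferation and inflammation, was at 121, 225 and 193 CPM in young, 546, 1111 and 348 CPM in aged and 343, 392 and 306 CPM in CASIN members. It rose from young to aged (1.91, SE 0.30, adjusted p = 0.000588), while the difference between CASIN and aged members was -0.91 (SE 0.29) with an unadjusted p of 0.00495 and an adjusted p of 1 in edgeR's test. Aged 2 was highest, aged 3 lay within the CASIN range, and all CASIN values lay above all young values.

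Nr4a2 was at 42.1, 70.8 and 146 CPM in young, 319.6, 773 and 285 CPM in aged and 236, 244 and 272 CPM in CASIN members. It was higher in aged than in young members (2.33, SE 0.29, adjusted p = 4.81e-05) and in CASIN than in young members (1.70, SE 0.29, adjusted p = 0.00123), and the log2 difference of CASIN from aged members was -0.63 (SE 0.27). All 3 CASIN values lay below the lowest aged value of 285 CPM. Dnajb1, a heat shock co-chaperone gene, was higher in aged than in young members (0.97, SE 0.17, adjusted p = 0.00171), and the value between CASIN and aged members was -0.15 (SE 0.16). Hspa5, the main chaperone gene of the endoplasmic reticulum, was at 335, 1249 and 2078 CPM in aged and 335, 204 and 1258 CPM in CASIN members, low in batch 1 and high in batch 2 in both groups, with a log2 difference of -0.46 (SE 0.23). Edem2, which directs misfolded proteins to degradation, was at 57.9, 56.8 and 56.7 CPM in aged and 47.6, 60 and 73.2 CPM in CASIN members (0.12, SE 0.18).

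**Figure D4:**
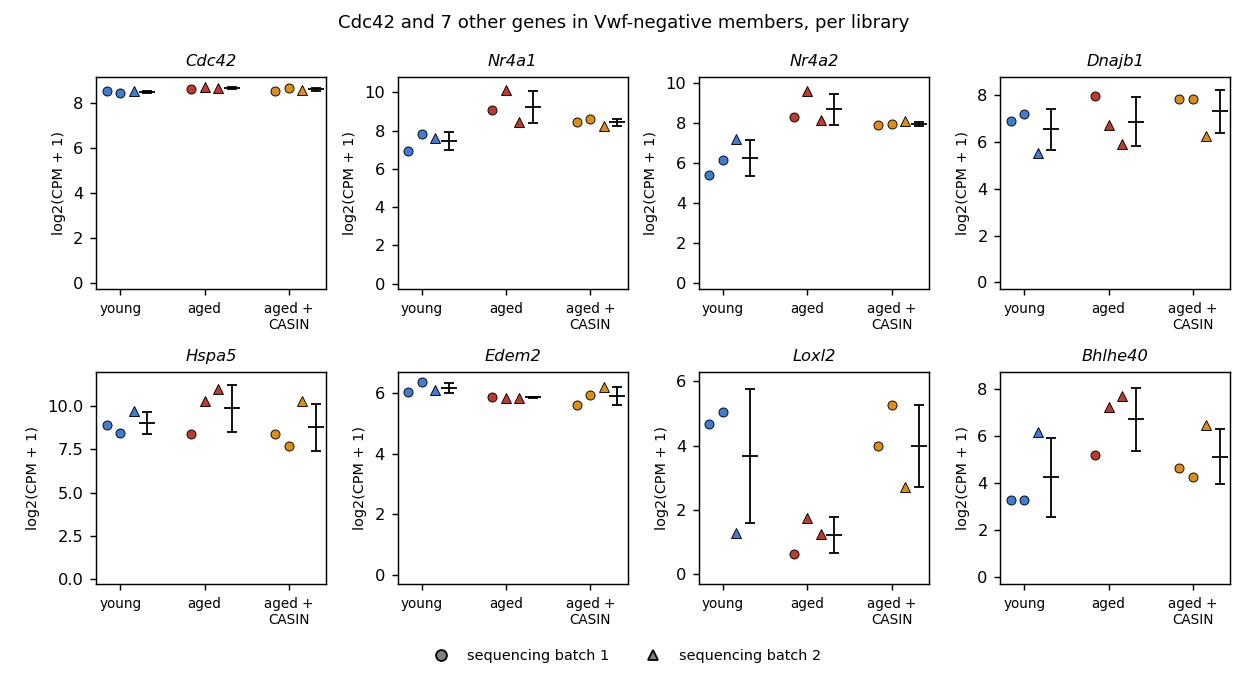
Levels of Cdc42, of 5 genes the study discusses and of Loxl2 and Bhlhe40 in the members of each library, as log2(CPM + 1) on the vertical axis (circles batch 1, triangles batch 2; black marks, mean ± SD of 3 libraries). Cdc42 lies within 351 to 417 CPM in all 9 libraries, and CASIN values of Nr4a1 and Nr4a2 lie between the young and the highest aged values.

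The genes with the lowest p between CASIN and aged members are given as genes that did not pass. Loxl2, which encodes an enzyme that crosslinks collagen, was at 24.6, 32.4 and 1.46 CPM in young, 0.551, 2.37 and 1.38 CPM in aged and 15.0, 37.7 and 5.58 CPM in CASIN members, a log2 difference of 3.61 (SE 0.73, adjusted p = 0.356) in edgeR's test. The CASIN values lay above all aged values. Bhlhe40, a transcription factor gene that responds to stress, was at 8.73, 8.53 and 70.1 CPM, 35.3, 150.4 and 205 CPM and 23.8, 18.1 and 86.5 CPM, a log2 difference of -0.92 (SE 0.20, adjusted p = 0.356), and within each batch the CASIN values lay below the aged values. The other genes with positive values were Clec2d (0.91), the thrombospondin gene Thbs1 (1.42), the chemokine gene Cxcl2 (3.57) and Hs3st1 (1.41). Those with negative values were the antiproliferative gene Tob1 (-1.18), the urokinase receptor gene Plaur (-0.94), Rrad (-1.03) and the RNA exosome gene Exosc2 (-1.07). No list had a gene that passed. The median log2 difference was -0.51 for DNA replication genes (3 of 19 positive), -0.24 for handling-response genes, -0.31 for cytosolic heat shock genes, 0.07 for genes known from aged stem cells and 0.09 for platelet genes. It was 0.26 for interferon response genes (9 of 13 positive) and -0.18 for endoplasmic reticulum folding genes (4 of 20 positive).

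CASIN members were also compared with the young members, a comparison that shares its young and CASIN samples with those above. Of 8125 genes, 394 (4.85%) passed, 241 (2.97%) higher and 153 (1.88%) lower in CASIN members, and 387 had the same direction in both batches. The count fell to 168 without young 1, 229 without young 2, 222 without CASIN 2 and 174 without CASIN 3. Median UMIs of members were 11446, 9013 and 8935.5 in CASIN samples, with CASIN 2 and 3 below every young library, and the median mitochondrial share was 3.86, 3.63 and 6.56%, above the young values within each batch. With members chosen anew from cells thinned to 5000 UMIs 144 genes passed, and at a mitochondrial limit of 5% 190, of which 114 and 174 were among the 394. Ramp2 was at 90.2, 73.9 and 74.6 CPM, Selp at 99.0, 80.9 and 152 CPM and Mt1 at 272, 488 and 96.3 CPM in CASIN members, with log2 differences of 4.43, 3.06 and 3.82 from young members, beside 4.54, 2.97 and 3.33 for aged members. Cyr61 had 62 UMIs in CASIN members and was at least 21.8-fold higher than the limit set by 0 UMIs in young members. Mt2 (5.91) was close to 0 in young members, so that the size of its value is uncertain. Besides Ramp2, Mt1, Mt2 and Cyr61, the 10 largest rises held Matn4 (5.06), Gpr183 (4.66), Cldn5 (4.60) and Rorb (4.28). The others were the dynamin gene Dnm3 (4.23) and the membrane protein gene Pmp22 (4.20). Of these 10, 9 passed with any single library left out, and Pmp22 did not pass without young 3 or without CASIN 3.

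Genes of DNA replication fell in CASIN against young members in 11 of 19 cases, with 0 higher (median -1.03). Mcm2 was at 15.0, 5.58 and 6.28 CPM in CASIN members, below all young values (-1.93, SE 0.30, adjusted p = 0.000398). The ligase gene Lig1 (-1.90), the chromatin remodeller gene Hells (-1.81), Mcm5 (-1.79) and the kinetochore gene Spc24 (-2.04) were with Mcm2 among the 10 largest falls. The others were Shisa8 (-2.55), Cd69, an early activation antigen gene (-1.93), Cd52 (-1.81), Ctss (-1.75) and Ncf4 (-1.73). Of these 10 falls, 4 passed with any single library left out, and 5 did not pass without young 1. Of the early progenitor genes, 7 of 12 fell and 0 rose (median -0.85). Cd34 was at 119, 60 and 99.7 CPM and Plac8 at 106, 86.5 and 122 CPM, log2 differences of -1.44 (SE 0.22, adjusted p = 0.000326) and -1.47 (SE 0.28, adjusted p = 0.00329). Genes known from aged stem cells rose in 20 of 24 cases in CASIN and in 20 of 24 in aged members, with medians of 2.74 and 2.58. This list was written with earlier results of these data known, so that its counts are no independent evidence. Handling-response genes rose in 8 of 19 cases here, and platelet genes in 8 of 15 with 1 lower.

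Members were compared with the Vwf-positive cells of the same library to ask what else differs between stem cells with and without Vwf. Of the lists, 8 of 9 early progenitor genes were higher in Vwf-negative cells, and 15 of 23 long-term stem cell markers and 5 of 15 platelet genes were lower. Of 7117 genes, 395 (5.55%) passed in edgeR's test with the library as a block, 182 (2.56%) higher and 213 (2.99%) lower in members, of which 86 were higher and 92 lower in 9 of 9 libraries. The median depth of Vwf-positive cells was 9880, 11068 and 10036 UMIs in young, 10879, 9788 and 9389.5 in aged and 13885, 9437 and 8746 in CASIN samples. It was above that of members in the 3 aged libraries, young 2 and CASIN 1 and 2, and below it in young 1 and 3 and CASIN 3. Their median mitochondrial share was higher than that of members in 9 of 9 libraries, at 4.33, 3.28 and 6.74% in young, 3.78, 8.27 and 7.24% in aged and 3.95, 3.79 and 7.39% in CASIN samples. The 34 young Vwf-positive cells, 8, 18 and 8 by library, make the young values of that class the least certain.

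Of 9 early progenitor genes tested, 8 were higher in members and 0 lower (median 0.77). Cd34 was at 54.5, 63.3 and 11.9 CPM in young, 41.2, 44.8 and 43.9 CPM in aged and 45.1, 22.9 and 54.4 CPM in CASIN Vwf-positive cells, against the member levels given above, and was higher in members in 9 of 9 libraries (1.33, SE 0.14, adjusted p = 3.94e-09). Plac8 was at 0 to 54.5 CPM in Vwf-positive cells and at 36.9 to 317 CPM in members, with a log2 difference of 2.25 (SE 0.17, adjusted p = 1.4e-12). Cd52 was the gene with the largest difference (3.05, SE 0.25, adjusted p = 1.05e-11), at 0 to 11.9 CPM in Vwf-positive cells and 16.5 to 121 CPM in members. The next largest were Nkg7 of cytotoxic granules (2.29), Wfdc17 (2.21), the proton-sensing receptor gene Gpr65 (1.56), Arhgap30 (1.54), Bin1 (1.5), Bcl2l11 (1.41) and the tetraspanin gene Cd37 (1.41). Cdk6, which drives exit from quiescence, was higher by 0.80 (SE 0.10), Spi1 by 0.77 (SE 0.09) and Myb, a factor of proliferating progenitors, by 0.50 (SE 0.11).

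Of 23 long-term stem cell markers, 0 were higher and 15 lower in members (median -0.41). Apoe was at 1460.5, 764 and 1002 CPM in young, 1097, 1725 and 1231 CPM in aged and 1229, 1528 and 1342 CPM in CASIN Vwf-positive cells, and lower in members by 1.04 on the log2 scale (SE 0.10, adjusted p = 5.83e-10). Nupr1 (-0.93), Slamf1 (-0.81) and Sult1a1 (-0.79) were lower too. Of 15 platelet genes, 1 was higher and 5 lower, among them Clu (-1.33, SE 0.16, adjusted p = 1.49e-07) and Selp (-0.81, SE 0.13, adjusted p = 5.49e-05). Selp was at 196, 34.1 and 95.5 CPM in young and 151, 225 and 199 CPM in aged Vwf-positive cells, and at 9.53, 8.53 and 27.7 CPM and 113, 135 and 84.3 CPM in members. Young members were thus low in Selp in all libraries, while young Vwf-positive cells spread from below to above the range of aged members. The other large differences were in Cyr61 (-2.03), the netrin receptor gene Neo1 (-1.29), Tm4sf1 (-1.26), Sbspon (-1.24), the lipoprotein receptor gene Lsr (-1.21), Ramp2 (-1.18), Cd28 (-1.15), the junction gene Jam2 (-1.13) and the endocytosis gene Ehd3 (-1.11).

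The 20 genes with the largest differences in either direction passed with any single library left out. When the classes were formed from cells thinned to 5000 UMIs, 60 genes passed, and at a mitochondrial limit of 5%, 83. Of genes known from aged stem cells, 0 of 24 were higher and 19 lower in members. Stem cell transcription factors were mixed, with 2 higher and 4 lower of 22. Hlf was higher in members by 0.40 (SE 0.11).

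**Figure D5:**
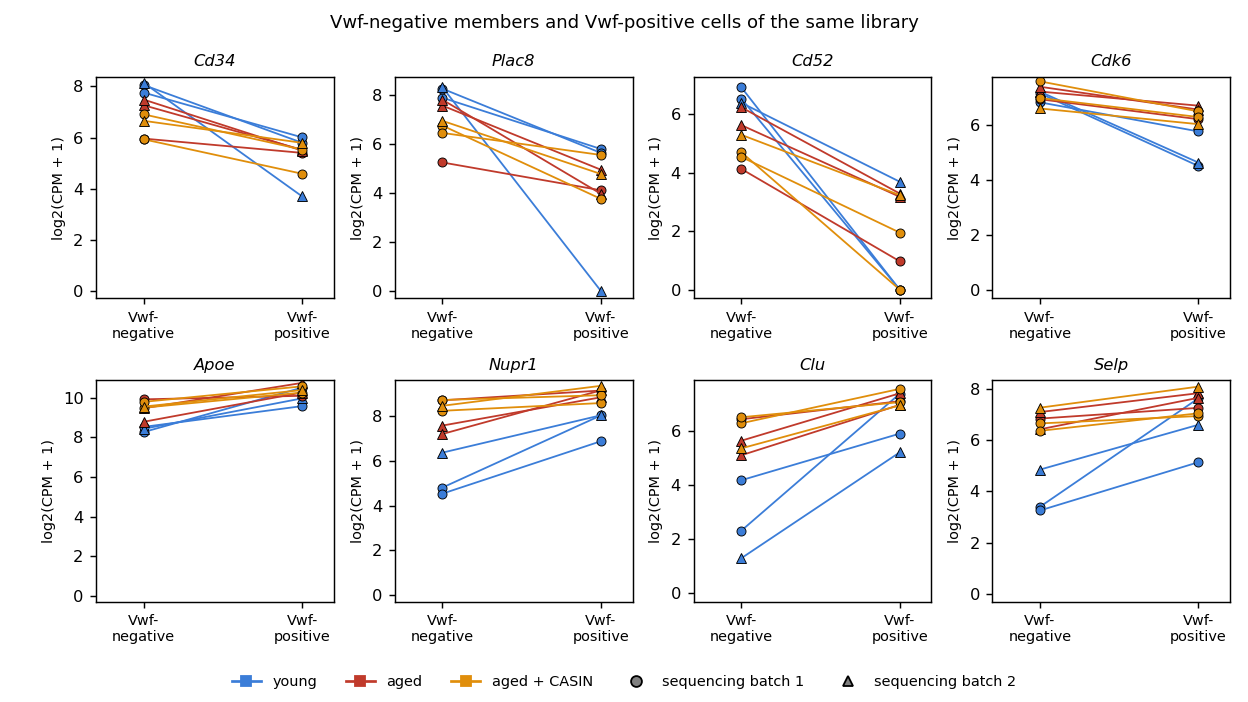
Levels of 8 genes as log2(CPM + 1) on the vertical axis in Vwf-negative members and Vwf-positive cells, with a line joining the classes of the same library (colours, young, aged and CASIN; circles batch 1, triangles batch 2). Cd34 is higher in members in 9 of 9 libraries and Apoe lower in 9 of 9.

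Whether age acts differently on the classes was tested as an interaction. Of 8731 genes, 12 (0.137%) passed, 10 (0.115%) with a more positive and 2 (0.0229%) with a more negative aged-young difference in members than in Vwf-positive cells. With cells thinned to 5000 UMIs, 137 genes passed, 5 positive and 132 negative, so that the balance of directions turned. Selp and Ramp2 were among the 12 genes that passed without thinning. Their log2 differences of differences there were 2.07 (SE 0.43, adjusted p = 0.0155) and 2.89 (SE 0.61, adjusted p = 0.0191) in edgeR's test. Ramp2 was at 3.97, 5.12 and 2.92 CPM in young members and 109, 24.3 and 83.5 CPM in young Vwf-positive cells, and at 129, 56.8 and 37.3 CPM and 159, 175 and 146 CPM in aged cells of both classes. The classes were thus closer to each other in aged than in young samples for this gene. In the thinned cells the value of Selp turned to -0.077. The classes were formed anew from thinned cells, with 4, 4 and 3 Vwf-positive cells in young 1 to 3. Without thinning the values rest on the 34 young Vwf-positive cells, and none of the 12 genes passed without young 1. Of the 12, 8 did not pass without aged 1.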

How the data were processed

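The deposited counts are whole-number UMI counts per gene and barcode, made by the authors with Cell Ranger 3.1.0 on the mouse build named in the submitters' processing notes and left unnormalized; 0 columns belonged to other series. The 9 libraries held 19237354 to 42780953 UMIs and the members' sums 685101 to 1814835 UMIs. Members and gene lists were chosen with earlier results of these data known. Cells were not removed by the study's limit of 0.4 on the residual of genes against UMIs, which left 15856 cells and took out 0 members. Doublets were not removed; Scrublet at a score of 0.3 marked 133 of 15975 cells (0.833%), 5 of them members. UMIs were summed per library and class and tested with edgeR 4.0.16 (quasi-likelihood, TMM, filterByExpr) in R 4.3.3, all 9 libraries in each fit, with batch as a term, or the library as a block between classes, and Benjamini-Hochberg adjustment over all genes tested. CPM were computed on the same sums, and a level is compared between samples, not between genes. Alternatives included DESeq2 1.42.0 and each library left out. Shares of cells with a UMI came from cells thinned to 5000 UMIs (Python 3.11.15, scanpy 1.11.5). The 13 genes of the rule were given as a description, with no test.

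Genes named are the 10 largest rises and falls per comparison among those that passed, with at least 10 CPM in the higher group and, between groups, the same direction in both batches; between CASIN and aged members the 5 lowest p in each direction; up to 4 per list by p and those a list turns on; 6 genes the study discusses; and genes that passed the interaction. The 30 lists were described by counts and medians. Barcodes shared by a pair of libraries numbered 39 to 85 within batch 1, 20 to 25 within batch 2 and 0 to 7 between batches, and 0 barcodes were shared by members of different libraries.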

Additional observations from a re-analysis of the deposited data

Results flagged for a closer look

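The 12 genes that passed the interaction are given because the aged-young difference in Vwf-negative members differed from that in Vwf-positive cells by a test of the difference itself. Values are the log2 difference in members minus that in Vwf-positive cells, in edgeR's quasi-likelihood test. They were 4.89 for Gkn3 (adjusted p = 0.00267), 1.38 for Lst1 (adjusted p = 0.00668), 1.88 for Meg3, 2.07 for Selp, 2.89 for Ramp2 and 3.14 for Cldn5. The others were 1.69 for Sult1a1, -1.28 for Rgs1, 2.62 for Plcl1, 1.84 for Hbb-bt, -0.91 for H2afy and 1.30 for Serpina3g. With cells thinned to 5000 UMIs the values of Selp and Cldn5 turned negative, and 137 genes passed, 5 positive and 132 negative. The classes were then formed anew, and young 1 to 3 held only 4, 4 and 3 Vwf-positive cells. A Cldn5 UMI was found in 31.1, 1.22 and 0% of thinned aged 1, 2 and 3 members, so that its aged level in members rests on aged 1. Gkn3 stood at 359.7, 4.87 and 11.9 CPM in the Vwf-positive cells of young 1, 2 and 3, so that its value rests on young 1. With the young Vwf-positive class at 8, 18 and 8 cells, none of the 12 passed without young 1, and DESeq2 called 0. Without aged 1, 8 of the 12 did not pass.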

How the results depend on the processing

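Counts of genes at an adjusted p of 0.05 moved with the processing. Between aged and young members (277), DESeq2 gave 127, no filter on low counts 486, cells thinned to 5000 UMIs 149, no batch term 0 (319 at an unadjusted p below 0.05), batch 1 alone 465 and batch 2 alone 18. Leaving out 1 library gave 52 (aged 1) to 402 (aged 3), with 144 without young 1 and 173 without young 2. Between CASIN and aged members (0), no filter gave 23, at least 2 Procr UMIs 1, each batch alone 3, and leaving out 1 library 0 to 2, with 2 without young 3, 1 without aged 1 and 2 without aged 3. Between CASIN and young members (394), DESeq2 gave 179, no filter 673, a mitochondrial limit of 5% 190, thinned cells 144, no immediate early limit 596, at least 2 Procr UMIs 223, no batch term 0 and batch 2 alone 38. Leaving out 1 library gave 168 (young 1) to 480 (aged 2), with 229 without young 2, 222 without CASIN 2 and 174 without CASIN 3. Between Vwf-negative and Vwf-positive cells (395), DESeq2 gave 223, the 5% limit 83, thinned cells 60, at least 2 Procr UMIs 163 and no library block 252, and leaving out 1 library 226 (CASIN 3) to 437 (aged 1), with 259 without aged 2. For the interaction (12), DESeq2 gave 0, no filter 27, thinned cells 137 (5 positive, 132 negative), at least 2 Procr UMIs 2, and leaving out 1 library 0 (young 1) to 29 (aged 3), with 20 without young 2 and 22 without aged 2. Against Flt3-positive cells (3086), thinned cells gave 1937. The young share of members moved from 4.78% to 2.94% with thinning and 4.64% at the 5% limit. The batches alone were added after seeing the data, and leave groups with a lone sample that is assumed to vary like the others. The cause of these moves was not tested.

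Of 12163 alternatives over 596 results of named genes, 11063 stayed on the same side of the threshold, 871 lost and 224 gained the call. Turns of direction where neither the main fit nor the alternative passed were counted among the 11063. In 5 more the direction turned with a call in at least 1 of these fits. These were Cxcr4 between CASIN and young members (-1.43 to 0.40 with 1 library left out, the highest without CASIN 3, and 0.49 in batch 1 alone), Cldn5 (-0.060) and Selp (-0.077) in the interaction with thinned cells, and Igkc against Flt3-positive cells with the residual limit (0.15).

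Deviations from the group means still held the batch difference, so they cannot show whether replicate numbers pair the libraries. Within a batch they correlated at 0.586 to 0.825 for equal numbers and at 0.566 to 0.737 for unequal numbers. Where number 2 crossed batches, the correlations were -0.582 and -0.595. With the number as a replicate block, 199 genes passed between aged and young, 0 between CASIN and aged and 427 between CASIN and young members. Depth limits low genes: members' sums held 685101 UMIs in young 3.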

Other observations

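The cells that met every condition but the immediate early limit were no members, and entered only the fits made without that limit. They numbered 202, of which 201 lay in batch 1, where members numbered 529, and 1 in batch 2, where members numbered 369. By library they were 40.9 and 43.5% of cells meeting the rest of the rule in CASIN 1 and 2, 29.6% in aged 1 and 11.3 and 7.76% in young 1 and 2. The median mitochondrial share of members in batch 1 was 3.1 and 3.0% in young 1 and 2, 3.6% in aged 1 and 3.9 and 3.6% in CASIN 1 and 2, and in batch 2 it was 5.1% in young 3, 7.6 and 5.9% in aged 2 and 3 and 6.6% in CASIN 3. Over the 9 libraries, 318 of 31889 distinct barcodes occurred in more than 1 library, and 5 members had a barcode that occurred in another library.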
